A study of Rattus norvegicus with 86 samples.

Results

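*Fam111a* (ENSRNOG00000012067) is 1 of the 17250 genes in the prelimbic cortex (PL) expression table, and it was chosen by its measured PL values, which fell into a low and a high level among rats. Its levels are therefore given as a description, without a test. Only the relation of its values to sex, to rat batch and to the other genes was tested.

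The data were RNA-Seq profiles of poly(A) RNA from PL, a medial prefrontal area, dissected from both hemispheres of naïve, group-housed Heterogeneous Stock (HS) rats. HS rats are an outbred population descended from several inbred strains, so each rat carries its own mixture of founder haplotypes, and no rat had been given a behavioural or drug treatment. Of 86 labelled PL samples, 6 had been removed by the authors, and the 80 kept rats, with 1 library each, comprised 40 males and 40 females. Rat batch 2 held 14 of these rats, batch 3 held 23, batch 4 held 26, batch 5 held 1 female and batch 6 held 16. Age was not given in the labels used here, and genotypes were not analysed here.

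FAM111A is a nuclear serine protease of the trypsin-like fold. It binds PCNA, the sliding clamp of DNA replication, and helps replication forks to pass proteins that are bound to DNA. It is known as a restriction factor that limits replication of some polyomavirus and poxvirus mutants, and dominant mutations in the human gene cause skeletal dysplasias with low parathyroid hormone.

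The promoter of *Fam111a* is shown because its expression varied so widely among rats, and that of *Fads1* because *Fads1* was 1 of the 2 genes whose expression followed it. Both are the 250 bases before the annotated start in RefSeq on build GRCr8, plus strand, at chr1:219065389-219065638 for *Fam111a* and chr1:216252442-216252691 for *Fads1*. The expression files rest on build Rnor_6.0, so these coordinates belong to the sequences only. Capitals mark matches to CCAAT and to the GC box GGGCGG on either strand.
Fam111a: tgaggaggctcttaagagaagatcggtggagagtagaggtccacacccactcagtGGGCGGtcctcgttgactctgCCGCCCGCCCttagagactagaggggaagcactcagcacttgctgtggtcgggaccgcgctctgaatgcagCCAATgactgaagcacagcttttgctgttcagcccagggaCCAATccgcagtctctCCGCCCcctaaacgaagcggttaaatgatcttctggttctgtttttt
Fads1: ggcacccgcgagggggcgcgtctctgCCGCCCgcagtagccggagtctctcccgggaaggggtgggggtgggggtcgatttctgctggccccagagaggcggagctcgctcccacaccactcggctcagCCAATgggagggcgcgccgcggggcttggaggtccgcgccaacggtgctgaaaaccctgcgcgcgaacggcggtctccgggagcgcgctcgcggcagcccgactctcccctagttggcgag
The *Fam111a* window held 2 CCAAT matches, which began 103 and 63 bases before the start, and 4 GC box matches, of which 1 pair overlapped. The *Fads1* window held 1 match of each kind. CCAAT was present in 34% and GGGCGG in 30.5% of the 33469 promoter windows of this length. Neither window held TATAAA, the cell cycle element TTTGAA, the interferon-stimulated response element or the E2F site TTTCCCGC on either strand, which were present in 12.9%, 16.2%, 3.41% and 0.813% of windows.

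Library depth was recovered from the pattern of rounding in the deposited values. These estimates are reads summed over the genes in the table, and they ranged from 10174405 to 32643825 with a median of 18244151. A clear scaling factor was found for 79 of the 80 libraries. The factor of the deepest library, 0.559, lay close to the lower search limit of 0.55. Pearson's r between pairs of libraries, across genes, lay between 0.930 and 0.982. Of the marker genes with an identifier, those of cortical excitatory neurons had mean log2 values of 11.08 (*Neurod6*) and 7.88 (*Foxp2*), and the interneuron marker *Vip* had a mean of 10.16. Habenula markers had means of 8.79 (*Nr4a2*) and 2.56 (*Chrnb4*), the astrocyte marker *Aldh1l1* of 7.99 and the microglial *P2ry12* of 7.55. Those of endothelium (*Vwf*), blood (*Hbb*) and meninges (*Dcn*) had means of 9.79, 9.29 and 7.87. Markers of striatum and of oligodendrocytes had no identifier that could be paired, so they were not examined.

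*Fam111a* expression ranged from 2.00 to 9.94 on the deposited scale, log2 of the adjusted read count plus 1, with a median of 8.16 and a mean of 6.84 ± 2.59 (SD, n = 80). In adjusted counts these values ran from 3 to 979 with a median of 286. Its SD was the 82nd largest of the 17250 genes, where the median gene had an SD of 0.262, although its mean exceeded that of only 37.7% of genes.

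No rat had a value between 4.32 and 7.61, an empty interval of 3.29 log2 units, whereas the next widest gap between neighbouring rats was 0.415. Such a gap was not particular to *Fam111a*. With at least 10% of rats required on either side, it ranked 46th in width among the 17250 genes. The 28 rats below the gap, 35% of all, had log2 values of 2.00 to 4.32 with a median of 3.58 and a mean of 3.42 ± 0.59 (SD). The 52 rats above it had values of 7.61 to 9.94 with a median of 8.61 and a mean of 8.68 ± 0.57 (SD). Within each level the rats thus spread about equally on the log2 scale, and the distance between the levels was many times that spread.

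The lower level rested on few reads. Rats there had 3 to 19 recovered *Fam111a* reads with a median of 11.5, and those at the upper level had 146 to 1455 with a median of 438. Every rat had at least some reads, and the median adjusted count was 35.3-fold higher at the upper level (388.5 against 11). Because PL was sampled as bulk tissue, fewer cells with *Fam111a* RNA and less *Fam111a* RNA per cell cannot be told apart. RefSeq lists 3 genes with a Fam111 symbol on build GRCr8, *Fam111a*, *Fam111al1* and the pseudogene *Fam111a-ps1*, near one another on chromosome 1, whereas the expression table could be paired with 1. How reads were shared among such copies is uncertain, and it was not tested here.

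**Figure D1:**
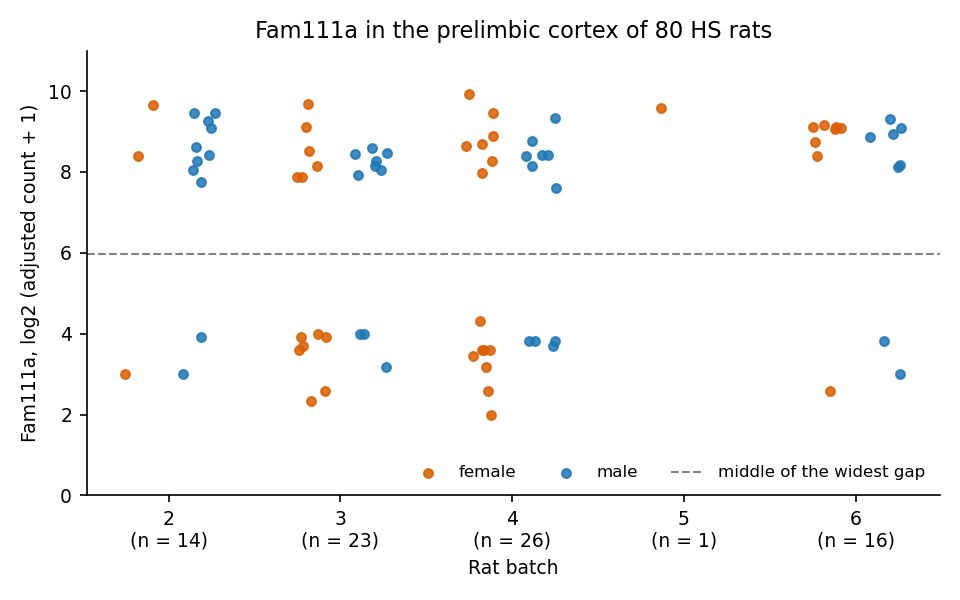
*Fam111a* expression in PL of each of the 80 HS rats (log2 of the adjusted read count plus 1), by rat batch and sex, with 1 point per rat. Every batch with more than 1 rat holds rats on both sides of the empty interval between 4.32 and 7.61, and so does each sex.

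Both levels were present in males and in females. Among the 40 males, *Fam111a* ranged from 3.00 to 9.47 with a median of 8.22, and 11 were at the lower level (27.5%). Among the 40 females it ranged from 2.00 to 9.94 with a median of 8.06, and 17 were at the lower level (42.5%). The sexes overlapped over nearly the whole range. The mean was 7.20 ± 2.27 (SD, n = 40) in males and 6.48 ± 2.85 (SD, n = 40) in females, and the difference with batch in the model was 0.58 (SE 0.57, 95% interval -0.54 to 1.70, limma adjusted p = 0.883). For comparison, 0.365% of all genes differed between the sexes at an adjusted p under 0.05. At the upper level, the median was 8.43 in the 29 males and 8.90 in the 23 females, with ranges of 7.61 to 9.47 and 7.87 to 9.94. At the lower level it was 3.81 in the 11 males and 3.58 in the 17 females. These values within levels are given without a test.

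Both levels were also present in every batch of more than 1 rat. In batch 6, *Fam111a* ranged from 2.58 to 9.31 with a median of 8.90, and 3 of 16 rats were at the lower level. In batch 2 it ranged from 3.00 to 9.66 with a median of 8.41, and 3 of 14 rats were at the lower level. These were the batches with the fewest low rats. In batch 3 it ranged from 2.32 to 9.67 with a median of 7.88, and 10 of 23 rats were at the lower level. In batch 4 it ranged from 2.00 to 9.94 with a median of 7.80, and 12 of 26 rats were at the lower level. The single rat of batch 5 was at the upper level, at 9.58.

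The batch means were, from high to low, 7.78 ± 2.35 (SD, n = 16) in batch 6, 7.60 ± 2.41 (SD, n = 14) in batch 2, 6.27 ± 2.53 (SD, n = 23) in batch 3 and 6.25 ± 2.71 (SD, n = 26) in batch 4. The difference between batches did not pass the threshold (limma F = 1.76, adjusted p = 0.198), in a table where 59.4% of genes differed between batches. Neighbours in this order did not differ beyond their spread, with batch 6 minus batch 2 at 0.35 (SE 0.91), batch 3 minus batch 2 at -1.12 (SE 0.85) and batch 4 minus batch 3 at -0.02 (SE 0.70). The widest differences were batch 6 minus batch 4 at 1.49 (SE 0.78, limma adjusted p = 0.264) and batch 6 minus batch 3 at 1.47 (SE 0.80, limma adjusted p = 0.119). Neither passed the threshold. Permutation tests gave p = 0.330 for sex within batches and p = 0.157 for batch within sexes. The former was two-sided, and the latter used the F ratio between batches of values centred within each sex.

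To find which genes followed *Fam111a* across rats, the log2 value of each of the other 17249 genes was fitted against that of *Fam111a*, with sex and batch in the model. The slope is then the change of a gene, in log2 units, for each log2 unit of *Fam111a*. It is fitted over both levels and across the empty interval, so it need not hold within either level. At an adjusted p under 0.05, 2 genes followed it, which is 0.0116% of the genes tested, and both had negative slopes. No gene had a positive slope past this threshold in limma, although 585 did at an unadjusted p under 0.05 (3.39%), beside 389 with negative slopes (2.26%). The 974 genes together are 5.65% of those tested.

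The gene most opposed to *Fam111a* was *AABR07006310.1* (ENSRNOG00000021084) on chromosome 1, a gene model named after its sequence contig, for which no function is given here. It ranged from 3.00 to 8.95 with a median of 7.23 and a mean of 6.75 ± 1.48 (SD, n = 80), or 7 to 492 adjusted counts. It had no wide empty interval of its own, since its widest gap between neighbouring rats was 0.652 log2 units. It fell by 0.34 log2 units for each unit of *Fam111a* (slope -0.34, SE 0.05, 95% interval -0.44 to -0.24, limma adjusted p = 8.53e-05). Over the distance between the means of the 2 *Fam111a* levels, this slope amounts to -1.79 log2 units. As a measure of likeness over the 80 rats, its partial r with *Fam111a*, given sex and batch, was -0.60, the lowest of all genes. Whether *AABR07006310.1* shares reads with *Fam111a* or its copies was not tested.

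The slope of *AABR07006310.1* had the same sign and a similar size in each batch. It was -0.36 (SE 0.11) in the 14 rats of batch 2 and -0.34 (SE 0.07) in the 23 of batch 3. It was -0.30 (SE 0.08) in the 26 of batch 4 and -0.42 (SE 0.15) in the 16 of batch 6. Within single batches, no gene passed an adjusted p under 0.05 in limma, where 469 (2.72%), 994 (5.76%), 1029 (5.97%) and 537 (3.12%) genes had an unadjusted p under 0.05 in batches 2, 3, 4 and 6. Both genes that followed *Fam111a* were picked over these same rats and named only for having the same sign in these batches. Their slopes by batch are therefore a description, and no p is given for them.

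Within levels, the slope of *AABR07006310.1* with sex and batch in the model was -1.52 (SE 0.32) among the 52 upper-level rats and -0.17 (SE 0.24) among the 28 lower-level rats. Neither passed the threshold over all genes (limma adjusted p = 0.301 and 0.938). The upper-level slope was steeper than the slope of -0.34 over all 80 rats. The gene had been picked for its slope over the same 80 rats, so its correlations within levels are a description and no p is given for them. Among upper-level rats Pearson's r was -0.53 and Spearman's rho was -0.48, and without the 2 rats farthest from the median *Fam111a* value r was -0.46. By batch, r among upper-level rats was -0.66 (n = 11), -0.62 (n = 13), -0.63 (n = 14) and -0.49 (n = 13) in batches 2, 3, 4 and 6. Among lower-level rats, where *Fam111a* rests on at most 19 reads, r was -0.12 and rho was -0.17.

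The 12 rats with *AABR07006310.1* under 5 all had *Fam111a* between 8.63 and 9.94, and 0 of the 28 rats at the lower *Fam111a* level were among them. At the lower level *AABR07006310.1* ranged from 6.21 to 8.95, and at the upper level from 3.00 to 8.54. The limit of 5 was not planned and lies in the widest gap between neighbouring rats in *AABR07006310.1*. That gene had been picked for its negative slope, so these counts are a description. Only 12 of the 52 upper-level rats were under 5, and otherwise the ranges of *AABR07006310.1* at both levels overlapped.

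**Figure D2:**
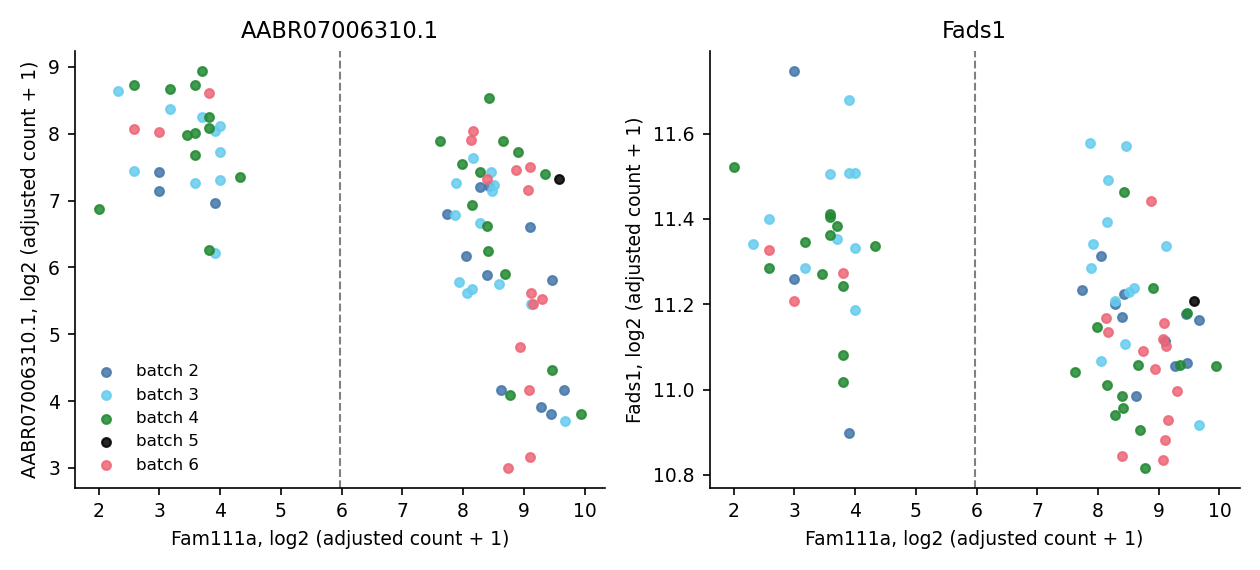
*AABR07006310.1* and *Fads1* against *Fam111a* in the 80 HS rats, all on the deposited log2 scale, with 1 point per rat. *AABR07006310.1* values under 5, a limit that was not planned, occur only in rats with *Fam111a* between 8.63 and 9.94. *Fads1* spans 10.82 to 11.75 with both *Fam111a* levels overlapping.

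The other gene was *Fads1* (ENSRNOG00000020480), a fatty acid desaturase of polyunsaturated fatty acid synthesis, also on chromosome 1. It was a highly expressed gene with a narrow range, from 10.82 to 11.75 with a median of 11.21 and a mean of 11.21 ± 0.20 (SD, n = 80). It fell by 0.037 log2 units for each unit of *Fam111a* (slope -0.037, SE 0.0073, limma adjusted p = 0.0263, partial r -0.50), or -0.19 log2 units over the distance between the levels. The change was therefore small, and its values at both levels overlapped. Its slope was -0.030 (SE 0.018), -0.026 (SE 0.014), -0.044 (SE 0.010) and -0.033 (SE 0.015) in batches 2, 3, 4 and 6.

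Within levels, the slope of *Fads1* was -0.066 (SE 0.042) among upper-level rats and -0.018 (SE 0.055) among lower-level rats, neither past the threshold (limma adjusted p = 0.809 and 0.973). As a description, r was -0.31 and rho -0.31 among upper-level rats, with r at -0.27 without the 2 farthest rats, and r was -0.18 and rho -0.14 among lower-level rats. By batch, r among upper-level rats was -0.54, -0.51, 0.06 and -0.19 in batches 2, 3, 4 and 6. *Fads1* itself differed between batches (limma adjusted p = 0.00412), and *AABR07006310.1* did not pass the threshold (adjusted p = 0.0861).

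**Figure D3:**
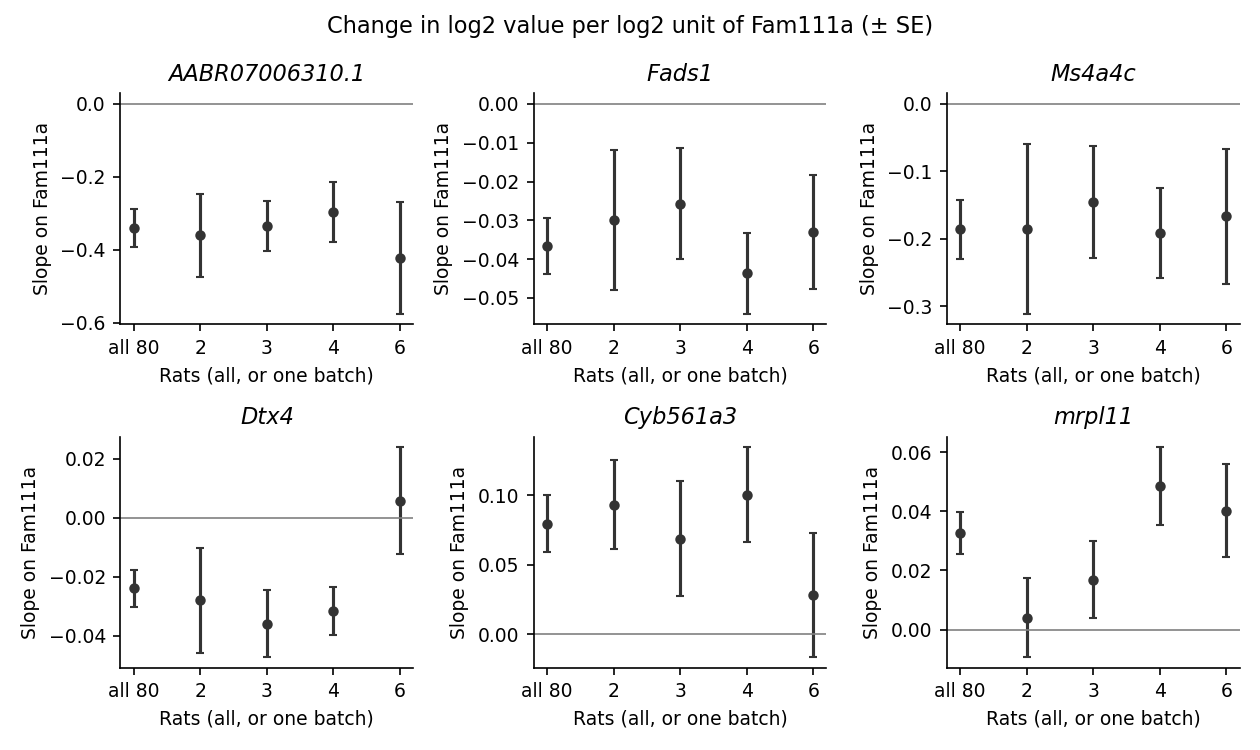
Slope on *Fam111a* (log2 units for each log2 unit of *Fam111a*) of *AABR07006310.1*, *Fads1*, *Ms4a4c*, *Dtx4*, *Cyb561a3* and *mrpl11*, in all 80 rats and in batches 2, 3, 4 and 6 separately, with SE as error bars and a separate axis for each gene. *AABR07006310.1* lies between -0.42 and -0.30 in every batch and *Fads1* between -0.044 and -0.026, whereas *Dtx4* is at 0.0059 in batch 6 and negative elsewhere.

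*Fam111a* and both genes that followed it lie on chromosome 1. In the RefSeq gene order on GRCr8, *Fads1* is 78 protein-coding genes before *Fam111a*, whereas *AABR07006310.1* has no symbol there. By the starts in the study's own annotation it stands directly before *Dtx4* among the named genes. The 20 named genes nearest to *Fam111a*, 10 on either side, ran from *Cyb561a3*, 66 genes before, to *Cbwd1*, 96 genes after. *AABR07006310.1*, which lies near *Fam111a* by the study's annotation but has no place in the RefSeq order, is not among these 20 or in the counts by distance. None of the 20 passed an adjusted p under 0.05 in limma, and 4 had an unadjusted p under 0.05, all of them before *Fam111a*. These were *Dtx4*, a ubiquitin ligase linked to Notch signalling that is 2 genes before *Fam111a* (slope -0.024, SE 0.0063, adjusted p = 0.309), *Ms4a4c*, a membrane protein (slope -0.19, SE 0.04, adjusted p = 0.230), *Ms4a2*, a subunit of the IgE receptor (slope 0.12, SE 0.04, adjusted p = 0.704) and *Cyb561a3*, a membrane reductase (slope 0.080, SE 0.020, adjusted p = 0.299). *Ms4a4c* and *Ms4a2* are scarcely expressed, at median log2 values of 1.58 and 2.00. *Cntf*, ciliary neurotrophic factor, 6 genes after *Fam111a*, had a slope of -0.0005 (SE 0.0152).

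The share of genes with an unadjusted p under 0.05 was counted by distance from *Fam111a*. Of the 32 named genes within 100 protein-coding genes on either side, 7 had one (21.9%), and of the 89 within 200, 12 did (13.5%). All 7 genes within 100 lie before *Fam111a*, so the share was not alike on both sides. They include *Fads1*, which had been picked for its slope. The share was 6.86% (40 of 583) on all of chromosome 1 and 4.67% (123 of 2635) on other chromosomes. Most gene names came from lists of genes with expression quantitative trait loci that the study chose on these rats, so these shares are not independent evidence, and no test was made of them. The adjacent *Fads2* had a slope of -0.014 (SE 0.0067, adjusted p = 0.874) and *Fads3* of -0.0060 (SE 0.0075).

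**Figure D4:**
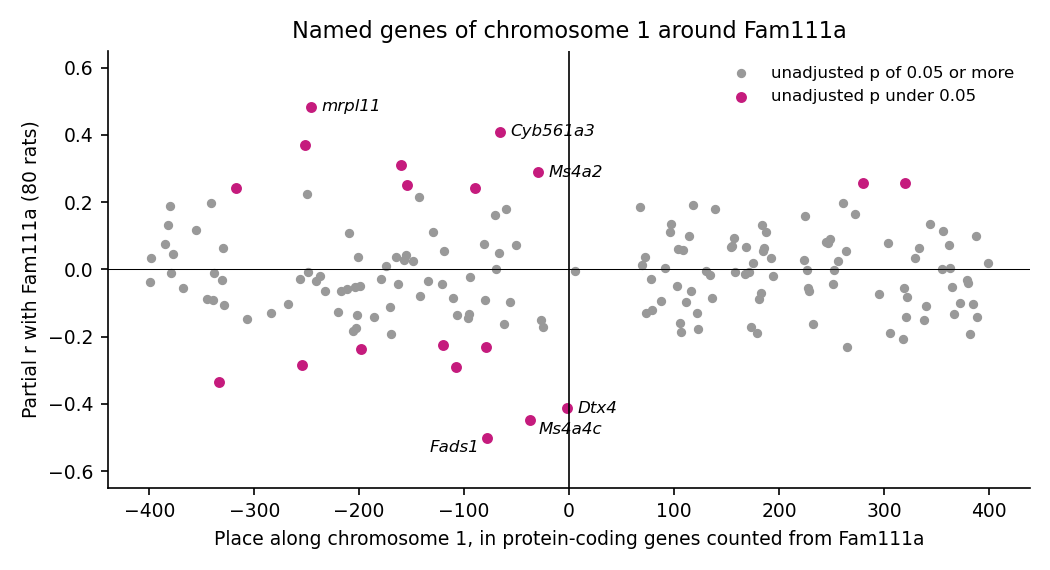
Partial r with *Fam111a*, given sex and batch, for the named genes on chromosome 1, placed by their distance from *Fam111a* in protein-coding genes. *Fads1* is at -0.50, 78 genes before *Fam111a*, and *Dtx4* at -0.41, 2 genes before it.

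Lists of related function were counted beside all genes, of which 0.0116% passed an adjusted p under 0.05 and 5.65% an unadjusted p under 0.05. At these shares, a count of 0 among so few genes is near the background and says nothing about a list. Of 38 genes for DNA replication 4 could be paired with an identifier, *Rfc5*, *Top1*, *Rpa1* and *Tdp1*. *Rfc5* helps to load PCNA, *Rpa1* acts on unwound DNA, and *Tdp1* removes protein from DNA ends. None of the 4 passed an adjusted p under 0.05 in limma or an unadjusted p under 0.05, and their median partial r was -0.0063 beside -0.0079 over all genes. Of 34 antiviral genes 10 could be paired, and none passed either threshold (0.0116% and 5.65% of all genes), with a median partial r of 0.080. The interferon-induced *Mx1*, a restriction factor of RNA viruses, had a partial r of 0.21 (slope 0.053, SE 0.029, adjusted p = 0.874), and *Ifit1*, which binds viral RNA, had a slope of -0.0094 (SE 0.117).

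Of 19 other proteases 7 could be paired and none passed either threshold (0.0116% and 5.65% of all genes), with a median partial r of 0.0024. Among them were *Htra2* and *Lonp1* of the mitochondria (slopes 0.00012, SE 0.0061 and -0.00014, SE 0.0037). Of 23 nuclear pore genes 6 could be paired, again with none past either threshold, beside the same shares of all genes, and a median partial r of 0.053. *Nup50*, a mobile nucleoporin, had a partial r of 0.20 (adjusted p = 0.896). Markers of excitatory neurons, interneurons, habenula, astrocytes, microglia, endothelium, meninges and blood were paired for 10 genes, and none passed either threshold, beside the same shares.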

How the data were processed

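PL RNA-Seq of 80 HS rats was analysed. Per the methods, the authors trimmed reads with cutadapt, estimated gene counts with RSEM on the Ensembl rat transcriptome and applied an upper quartile adjustment in DESeq2, and filtered samples and genes. Versions were not given in the sources used here; the labels name build Rnor_6.0. The deposited values are log2 of the adjusted count plus a pseudocount of 1. All of them (100% within 0.1%) are whole numbers before the log, so no count test was run on the rounded, adjusted values.

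Each other gene was fitted on *Fam111a*, sex and batch with limma 3.58.1 in R 4.3.3 (eBayes with trend, Benjamini-Hochberg over all genes). *Fam111a* itself was tested with limma for sex, with batch in the model, and for batch, with sex in the model. The permutation tests beside these used 100000 permutations. Library factors came from skipped or doubled whole numbers (0.55 to 2.2 in steps of 0.0005, bounds taken from earlier work on these data), and the fits were tested on simulated data. Python 3.11.15 was used for the rest.

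The gene and all lists were chosen with earlier results of these data known. Names came from the study's quantitative trait tables, which pair 3292 identifiers (19.1%), and gene order and promoters from RefSeq GRCr8. Named genes are those passing with the same sign in batches 2, 3, 4 and 6, up to 6 paired members of each list in list order, marker genes and the nearest 20 named neighbours. *Fads2*, *Fads3*, *mrpl11*, *Smdt1* and *Sla2* were named after their values were seen. Each rat gave 1 PL library, so errors cover the spread between rats.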

Additional observations from a re-analysis of the deposited data

How the results depend on the processing

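Alternatives were the pseudocount, a filter on low values, a rank-based transformation, 20 expression components, robust estimation, a depth covariate, other batch terms, single batches, other scales of *Fam111a* and other boundaries. The number of lower-level rats was 28 under all 3 other boundaries. The 2 genes following *Fam111a* were the same 2 in each of the 10 alternatives that used all levels and several batches. *Ms4a4c* was added with 20 components and with no batch term. The number fell to 0 in limma in each of batches 2, 3, 4 and 6 alone (469, 994, 1029 and 537 at an unadjusted p under 0.05), above the gap alone (1185) and below it alone (1000), where fewer rats were fitted. The *Fam111a* sex difference was 0.58 and reversed to -0.92 (SE 3.34) with 20 components and to -0.74 (SE 1.07) in batch 6 alone, neither past the threshold; the cause was not tested. At the lower level, *Fam111a* rests on 3 to 19 reads a library, in 28 rats. Whether this limits the relations there was not tested. No paired analysis was made, because only PL was analysed here and each rat gave 1 PL library.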

Other observations

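The genes with the highest partial r with *Fam111a* missed the threshold. *mrpl11*, a protein of the large subunit of the mitochondrial ribosome on chromosome 1, had a slope of 0.033 (SE 0.0070, limma adjusted p = 0.0733). *Smdt1*, a subunit of the mitochondrial calcium uniporter on chromosome 7, had a slope of 0.045 (SE 0.011, adjusted p = 0.299). On the negative side, *Sla2*, an adaptor of antigen receptor signalling on chromosome 3, had a slope of -0.16 (SE 0.04, adjusted p = 0.299). All 3 had the same sign of slope in batches 2, 3, 4 and 6, but they were named after their values were seen. In batch 2 the slopes of *mrpl11* and *Smdt1* were only 0.0039 (SE 0.0133) and 0.0035. Among upper-level rats the slope of *Smdt1* was -0.034 (SE 0.065). *Sla2* is scarcely expressed, at a median log2 value of 2.58.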
